A study of Mus musculus with 16 samples.

Results

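Enteroids with an induced knockout of Myo5b, the gene of the motor protein myosin Vb (MYO5B), were compared with control enteroids. The comparison took 8 of the 16 RNA-seq libraries of the series, 4 per group. By the study's methods both groups came from jejunal crypts of adult mice with both Myo5b copies floxed and a Cre recombinase that tamoxifen activates, driven by the Vil1 promoter and so expressed in intestinal epithelium. The knockout cultures, labelled MYO5B induced KO and named MYO5BΔIEC in the study, received 4-OH-tamoxifen at 1 µM for 24 h and were then kept for 2 days in differentiation medium with vehicle. The labels of the control cultures call them differentiated and give the genotype as control, with no treatment, vehicle or days of differentiation. The methods give ethanol in place of 4-OH-tamoxifen, and each group held cultures of 4 mice. By these methods the groups share the floxed gene and the Cre. A figure legend of the study calls the controls healthy littermates and gives no genotype for them. MYO5B loss, exposure to 4-OH-tamoxifen and activation of the Cre cannot be told apart in this comparison. Nor can any difference in genotype, vehicle or differentiation time that the labels do not show. A fall of a transcript in these bulk samples can stand for fewer cells of a type or for less RNA per cell, which cannot be told apart either.

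Myosin Vb walks along actin filaments and carries recycling vesicles marked by the small GTPases RAB11A and RAB8A to the apical membrane of epithelial cells. Inherited loss of the motor causes microvillus inclusion disease, a severe diarrhoea of infancy in which enterocytes lose brush border and take apical transporters into the cell. Enteroids are closed epithelial cultures grown from crypts in a basement membrane gel, and after withdrawal of growth factors they hold mostly enterocytes with some secretory cells.

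The targeted gene was read first. Myo5b had 154, 223, 184 and 170.4 CPM in controls and 131, 107, 163 and 97.2 CPM in MYO5BΔIEC cultures. The values are in the order of cultures 1 to 4, here and for every gene below. Of the 4 knockout values 3 lay below every control, that of MYO5BΔIEC 3 lay among the controls, and the gene was not called (log2 fold change -0.55 ± 0.19 (SE), adjusted p = 0.0503, by the edgeR quasi-likelihood test with Benjamini-Hochberg adjustment over all genes, which gives every adjusted p below). CPM are counts scaled to library size, here after TMM normalisation. A single value in parentheses after a gene, or after the words rose by or fell by, is a log2 fold change of MYO5BΔIEC against control enteroids. Transcript reads over the whole gene include any RNA that is still made from a floxed allele, so the level does not measure the protein. The paralogs were not called, Myo5a with a log2 fold change of 0.21 (adjusted p = 0.636) and Myo5c with a log2 fold change of 0.09 (adjusted p = 0.636).

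Libraries held 27804968 to 36920083 counts. Control 1 stood apart from the other controls: its expression profile correlated with theirs at 0.951 to 0.954, against 0.982 to 0.985 among the other 3 controls and 0.964 to 0.979 within the MYO5BΔIEC group. Its counts came from longer genes, with a count-weighted gene length of 3758 bases, close to the 3817 to 3894 bases of the MYO5BΔIEC cultures and above the 2963 to 3101 bases of the other controls. Epithelial genes were abundant in every culture, with Krt8 at 2353 ± 371 CPM (SD, n = 4) in controls and 3692 ± 266 CPM in MYO5BΔIEC enteroids. Markers of other cell types were low, against a counting floor of 0.0869 to 0.108 CPM that 3 counts give. The 14 fibroblast and muscle markers summed to at most 42.7 CPM. The 13 immune markers summed to at most 3.55 CPM and the 7 endothelial markers to at most 2.55 CPM. Of these lists 5, 5 and 3 genes passed the filter, and none of them was called. Summed levels of lists, here and below, include members under the filter. Of the 4 tested neuron and glia markers, Ret and S100b rose, the former a growth factor receptor and the latter a calcium-binding protein (log2 fold changes 1.71 and 2.35). The 8 listed neuron and glia markers summed to 5.38 to 8.83 CPM in controls and 13.2 to 18.6 CPM in MYO5BΔIEC enteroids.

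Of 17951 genes tested, 2427 (13.5%) were higher and 2483 (13.8%) lower in MYO5BΔIEC enteroids at an adjusted p under 0.05, and the median log2 fold change over all genes was -0.01. With the offset for gene length described below the shares were 12% and 15.3%, without control 1 they were 21.2% and 20.8%, and with any other culture left out 8.45% to 13.1% and 7.98% to 13.7%. Every MYO5BΔIEC culture lay above every control for 13.3% of the genes tested and below every control for 13.6%. Counts in the lists and families below stand beside 13.5% higher and 13.8% lower over all genes, and several lie near those shares. The rises were larger than the falls. Among called genes, 280 rose by more than 4-fold and 60 fell by as much. Direction differed with the level in controls: of the 615 genes at 100 FPKM or more in controls, 304 fell and 20 rose, at a median of -0.70, whereas of the 5793 genes under 1 FPKM 620 rose and 75 fell. These classes were set by the control level, which is also the base of the fold change. A gene low in controls can also pass the filter through the MYO5BΔIEC cultures alone, so the split is in part built into the classes. Direction also followed gene length, from 677 lower and 84 higher in the shortest of 5 length classes (45 to 1522 bases) to 321 lower and 931 higher in the longest (6492 to 123179 bases). Fitting an offset for gene length left 2148 higher and 2741 lower genes, of which 4047 were calls of the fit without it. The number called was 7474 without control 1, 2983 without control 3, 2970 without control 4 and 2963 without MYO5BΔIEC 2.

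**Figure D1:**
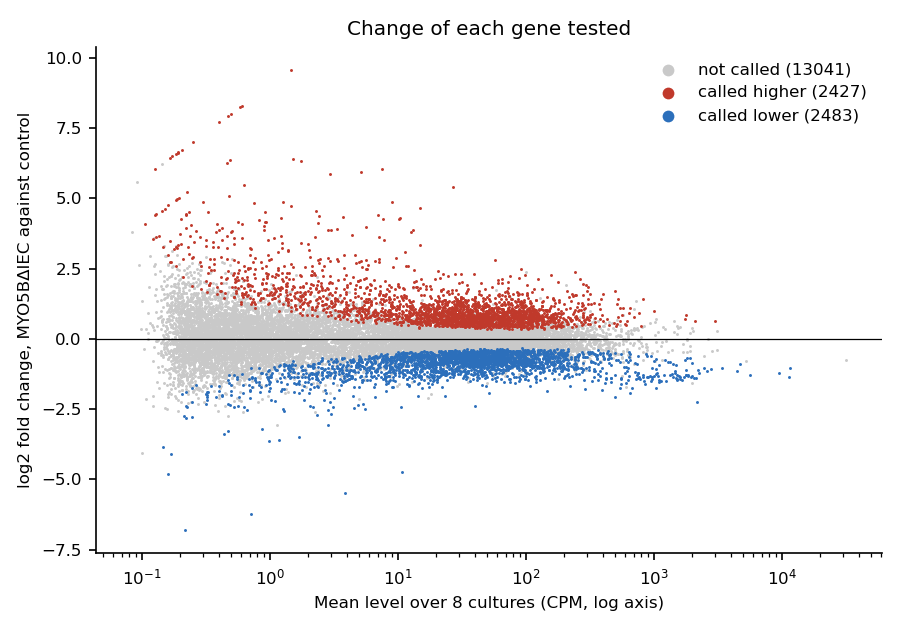
Each point is 1 of 17951 genes, placed by its mean level over the 8 cultures (CPM, log axis) and its log2 fold change in MYO5BΔIEC against control enteroids; called genes are coloured, 2427 higher in red and 2483 lower in blue. Rises reach further than falls, and the most abundant genes lie mainly below 0.

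Genes of the protein synthesis machinery fell together. Of 79 tested genes of cytosolic ribosomal proteins, 75 fell and none rose, at a median of -1.35; with the offset for gene length 71 fell, with a median of -1.15. These genes took 7.81%, 10.6%, 11.3% and 12.6% of all counts in controls 1 to 4 and 5.23%, 5.56%, 4.42% and 5.39% in MYO5BΔIEC cultures 1 to 4, so the groups did not overlap although control 1 was the lowest control. Rps15a, of the small subunit, had 1004, 1165, 1390.2 and 1441 CPM in controls and 425, 423, 412 and 504 CPM in MYO5BΔIEC cultures (log2 fold change -1.50 ± 0.17 (SE), adjusted p = 0.0014). Rpl12, of the large subunit, went from 2226 to 806 CPM (log2 fold change -1.47). Rpl30 and Rps27a, the latter made as a fusion with ubiquitin, had log2 fold changes of -1.74 and -1.76, and Rpl22l1, a paralog of Rpl22, -1.70. These 3 were among the 12 largest falls of the 3134 called protein-coding genes of at least 5 CPM whose groups did not overlap. Leaving out 1 culture at a time left 61 (without control 4) to 76 (without control 1) of the 79 lower. Ribosomal protein genes have many processed pseudogenes, and reads between near-identical copies can be split by the counting. Of all 1164 processed pseudogenes tested, whatever their parent gene, 262 were called lower and 14 higher. Those of ribosomal protein genes were not counted apart.

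Mitochondrial translation and degradation of proteins followed the same direction. Of 77 mitochondrial ribosomal protein genes, 54 fell and none rose (median -0.75). Those with the smallest p were Mrps17 (-0.89), Mrpl23 (-0.99) and Mrps14 (-1.06). Of 38 proteasome subunit genes, 25 fell and none rose (median -0.64). Psma3, a subunit of the catalytic core, had 137, 181, 194 and 185 CPM in controls and 80.6, 88.9, 95.2 and 102 CPM in MYO5BΔIEC cultures, with no overlap between the groups. Among 34 tRNA synthetase genes 6 fell and none rose, at a median of -0.26. Their share lower, 17.6%, was near the 13.8% of all genes tested. Rars2 (-0.62) and Dars (-0.52, not called without MYO5BΔIEC 1 or 2, adjusted p up to 0.0584) were among the 6. Without control 1 the numbers lower were 66, 32 and 7 for these 3 families. Over the 8 fits with 1 culture left out, mitochondrial ribosomal protein genes lower ran from 35 (without control 4) to 66 (without control 1). The number for proteasome genes ran from 15 (without control 3 or 4) to 32 (without control 1) and that for tRNA synthetase genes from 1 (without MYO5BΔIEC 1 or 2) to 11 (without MYO5BΔIEC 4).

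Respiratory chain genes fell in both genomes. Of 36 nuclear genes of complex I, the entry point of electrons from NADH, 20 fell and none rose (median -0.83), and all 36 point estimates were below 0. The counts were 1 of 4 for complex II, 4 of 9 for complex III, 4 of 11 for complex IV and 9 of 15 for the ATP synthase, complex V, with no member higher. Leaving out 1 culture gave 4 (without control 3 or 4 or MYO5BΔIEC 2) to 12 (without control 1) of the 15 ATP synthase genes lower. The count was 2 (without control 3 or 4 or MYO5BΔIEC 2) to 11 (without control 1) of the 11 complex IV genes. Ndufv2, a core subunit of complex I, had 173, 293, 308 and 297 CPM in controls and 128, 134, 135 and 134 CPM in MYO5BΔIEC cultures (log2 fold change -1.01 ± 0.18 (SE), adjusted p = 0.00378). Sdhb, the iron-sulfur subunit of succinate dehydrogenase, had a log2 fold change of -0.86, Uqcrc2 of complex III -0.84, Cox7c of complex IV -0.99 and Atp5c1 of the ATP synthase -0.85. Not called were Ndufb8 with a log2 fold change of -0.69 (adjusted p = 0.204), and Sdha with a log2 fold change of -0.18 (adjusted p = 0.545). Nor were Cox4i1 with a log2 fold change of -0.43 (adjusted p = 0.0865) and Atp5a1 with a log2 fold change of -0.18 (adjusted p = 0.372). Of 13 mitochondrially encoded protein genes 11 fell (median -1.22). mt-Nd1, of complex I, had a log2 fold change of -1.35 (adjusted p = 0.0111) and mt-Co1, of complex IV, a log2 fold change of -0.77 (adjusted p = 0.0575). Another of them, mt-Co2, also a catalytic subunit of complex IV, had 265, 882, 1457 and 621 CPM in controls and 189, 187, 198 and 196 CPM in MYO5BΔIEC cultures, the second largest fall of the 3134 genes defined above.

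Control 1 was at or near the knockout level for this group. Its summed level of complex I genes was 2709 CPM, inside the range of 2668 to 2873 CPM in MYO5BΔIEC enteroids, while the highest control reached 5757 CPM. The same held for the mitochondrially encoded genes, at 59148 CPM in control 1, 37446 to 59941 CPM in MYO5BΔIEC enteroids and up to 114110 CPM in the other controls. Without control 1, 36 of 36 complex I genes and 12 of 13 mitochondrially encoded genes were called lower. With the other cultures left out in turn, the complex I count ranged down to 10, without control 3 or 4 or MYO5BΔIEC 2. The fall moved with gene length and with 1 control culture, and their part in it was not tested; with the offset for gene length 15 of the 36 complex I genes and 9 of the 13 mitochondrially encoded genes were lower. Tfam, which binds and maintains mitochondrial DNA, was read as a member of the HMG-box factors and had 105, 114, 125 and 134 CPM in controls and 62.1, 54.2, 60.6 and 74.5 CPM in MYO5BΔIEC cultures (log2 fold change -0.93 ± 0.14 (SE), adjusted p = 0.00207).

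**Figure D2:**
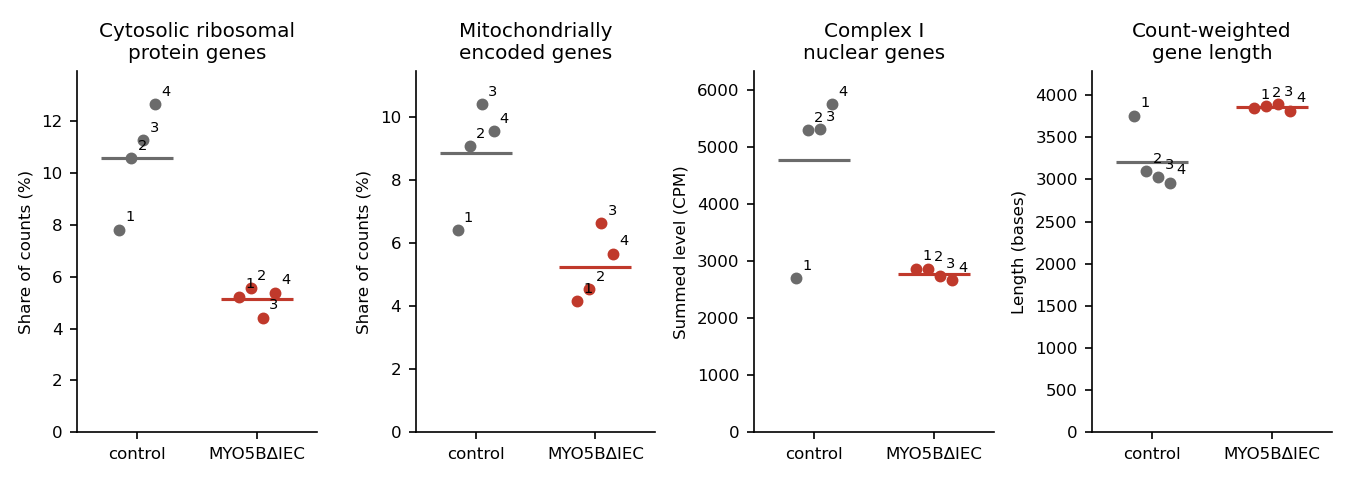
Per-culture share of counts on cytosolic ribosomal protein genes and on mitochondrially encoded genes (percent of all counts), summed level of complex I nuclear genes (CPM) and count-weighted gene length (bases), with controls in grey and MYO5BΔIEC cultures in red, culture numbers beside the points and the group mean as a line. Ribosomal protein shares do not overlap (7.81% to 12.6% against 4.42% to 5.56%), whereas control 1 lies among or next to the MYO5BΔIEC cultures in the other 3 panels.

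Enzymes around the citric acid cycle mostly fell with the respiratory chain. Of 17 genes 10 fell and 2 rose (median -0.43), and without 1 culture 4 (without control 3) to 11 (without control 1) fell. Idh3g, a subunit of isocitrate dehydrogenase, and Dld, the shared dihydrolipoyl dehydrogenase of the 2-oxoacid complexes, had log2 fold changes of -0.70 and -0.71. In the other direction, Ogdh, the first subunit of 2-oxoglutarate dehydrogenase, had 228, 188, 175 and 148 CPM in controls and 397, 364, 461 and 333 CPM in MYO5BΔIEC cultures (log2 fold change 1.07 ± 0.17 (SE), adjusted p = 0.00243). Cs, citrate synthase, had a log2 fold change of 0.48 (adjusted p = 0.0351) and was not called without control 2, 3 or 4 or MYO5BΔIEC 1, 2 or 3, adjusted p up to 0.109.

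Genes of the basement membrane rose together. Of 16 tested members, 14 rose and none fell, at a median of 1.74, and all 16 estimates were above 0. Lama5, the laminin chain of the villus basement membrane, had 44.6, 36.1, 26.9 and 26.1 CPM in controls and 137, 236, 167 and 109 CPM in MYO5BΔIEC cultures (log2 fold change 2.28 ± 0.26 (SE), adjusted p = 0.0014). Nid1, which links laminin to type IV collagen, had 1.06, 2.58, 0.743 and 0.645 CPM in controls and 26.9, 12.7, 10.4 and 7.39 CPM in MYO5BΔIEC cultures. Agrn, a heparan sulfate proteoglycan, had 159.7, 123, 88.1 and 83.3 CPM in controls and 347, 417, 358 and 250.02 CPM in MYO5BΔIEC cultures. For each of the 3 genes every MYO5BΔIEC culture lay above every control. The log2 fold changes were 3.51 for Nid1 and 1.59 for Agrn. All 7 laminin genes tested rose (median 1.69), Lamc1 by 1.28 and Lama3 by 2.88 on the log2 scale. Lamb3 had a log2 fold change of 0.85 (adjusted p = 0.0257) and was not called without control 2, 3 or 4 or MYO5BΔIEC 1, 2 or 3, adjusted p up to 0.0771. With 1 culture left out, the number of the 16 members called ranged from 9 (without control 3 or MYO5BΔIEC 2) to 13 (without control 1 or MYO5BΔIEC 1). The summed level of the members was 236 to 481 CPM in controls, with control 1 the highest, and 733 to 1195 CPM in MYO5BΔIEC enteroids.

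Receptors for that matrix and their cytoplasmic links changed in the same direction. Of 18 integrin and focal adhesion genes 8 rose and none fell (median 0.63). Itgb4, the beta chain of the hemidesmosome integrin, had 66.8, 59.5, 49.4 and 39.9 CPM in controls and 229, 323, 285 and 197 CPM in MYO5BΔIEC cultures (log2 fold change 2.26 ± 0.21 (SE), adjusted p = 0.000852). Plec, which ties that integrin to keratin filaments, went from 100.2 to 434 CPM (log2 fold change 2.11), and Itga3, a laminin receptor chain, from 65.7 to 173 CPM (1.40). Itgb1 and Itga6, which pair with these chains, had a log2 fold change of -0.16 (adjusted p = 0.397) and a log2 fold change of 0.32 (adjusted p = 0.0794). Of 9 keratin genes of epithelia 8 rose and none fell (median 0.87; 4 (without control 3 or 4) to 9 (without control 1) rose with 1 culture left out), Krt19 by 0.72 and Krt23 by 0.90. Over all 21 keratin genes tested 9 rose and 1 fell, Krt10 (-0.77). Krt8 had a log2 fold change of 0.65 (adjusted p = 0.0184) and was not called without control 2, 3 or 4 or MYO5BΔIEC 2, adjusted p up to 0.0686. Krt20, of mature enterocytes, had a log2 fold change of 0.87 (adjusted p = 0.0209) and was not called without control 3 or 4 or MYO5BΔIEC 1 or 3, adjusted p up to 0.0622. Krt5, a keratin of stratified epithelia, had 0, 0, 0 and 0 CPM in controls and 0.146, 1.44, 0.614 and 2.49 CPM in MYO5BΔIEC cultures, so it was listed at 0 in controls and low in MYO5BΔIEC cultures.

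Cytoskeletal genes rose across several classes. Over all genes tested, 25.9% of the longest of the 5 length classes and 2.34% of the shortest were called higher. The part of gene length in the rises of cytoskeletal, basement membrane, integrin and junction genes was not tested beyond the fit with the offset for gene length. That fit kept 226 of the 235 called genes named in the text. Its counts by list are not given here for these rises. Of 23 actin cytoskeleton genes 13 rose and none fell (median 0.84). Gsn, the severing protein gelsolin, had 34.3, 31.5, 23.9 and 25.3 CPM in controls and 96.2, 129, 134 and 110.4 CPM in MYO5BΔIEC cultures (log2 fold change 2.03 ± 0.17 (SE), adjusted p = 0.000614). Myh9, the heavy chain of non-muscle myosin II, went from 288 to 768 CPM (1.42) and Inf2, a formin, from 24.4 to 96.7 CPM (1.99). Actb rose by 0.84. Flna, the crosslinker filamin A, had a log2 fold change of 1.07 (adjusted p = 0.0453) and was not called without control 2, 3 or 4 or MYO5BΔIEC 1, 2, 3 or 4, adjusted p up to 0.121. Of 25 myosin heavy chain genes of all classes 13 rose and none fell (median 1.06), with Myo15b (1.55) and Myo1e (1.13) beside Myh9. Arhgap and Arhgef genes, regulators of small GTPases that act on the cytoskeleton, gave 23 higher and 1 lower of 53. Those with the smallest p were Arhgap40 (2.27), Arhgef17 (2.05) and Arhgef16 (0.82). The one lower was Arhgef39 (-0.44, not called without control 2, 3 or 4 or MYO5BΔIEC 2, adjusted p up to 0.0714). Among plexins and semaphorins, guidance receptors and ligands that act on the cytoskeleton, 13 of 22 rose and none fell, with Plxna1 from 26.7 to 105 CPM and Sema6a from 13 to 40.3 CPM.

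Cell junction genes rose by smaller amounts. Of 15 adherens junction and desmosome genes 10 rose and none fell (median 0.49): Dsp, desmoplakin, had 297, 241, 222 and 225 CPM in controls and 535, 524, 546 and 449 CPM in MYO5BΔIEC cultures, and Jup, plakoglobin, rose by 1.36 and Pkp3 by 0.82. Cdh1, E-cadherin, had a log2 fold change of 0.92 (adjusted p = 0.0389) and was not called without control 2, 3 or 4 or MYO5BΔIEC 1, 2, 3 or 4, adjusted p up to 0.11. Of 19 tight junction genes 9 rose and none fell (median 0.44). Cldn4, a barrier claudin, had 149, 82.4, 88.7 and 76 CPM in controls and 312, 362, 348 and 267 CPM in MYO5BΔIEC cultures (log2 fold change 1.70 ± 0.22 (SE), adjusted p = 0.00149). Cldn23 rose by 1.68 and Tjp1, the scaffold ZO-1, by 1.08. Cldn15, which forms sodium pores, had a log2 fold change of 0.12 (adjusted p = 0.626). Of 13 polarity genes 4 rose and none fell, Patj by 0.96, Llgl2 by 0.88 and Pard6b by 1.33. Crb3, which marks the apical domain, had a log2 fold change of 0.09 (adjusted p = 0.778). In the fits without 1 culture the number of desmosome and adherens junction genes higher ran from 3 (without control 2 or 3 or MYO5BΔIEC 2) to 10 (without control 1). For tight junction genes it ran from 8 (without control 2, 3 or 4 or MYO5BΔIEC 2) to 11 (without control 1).

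**Figure D3:**
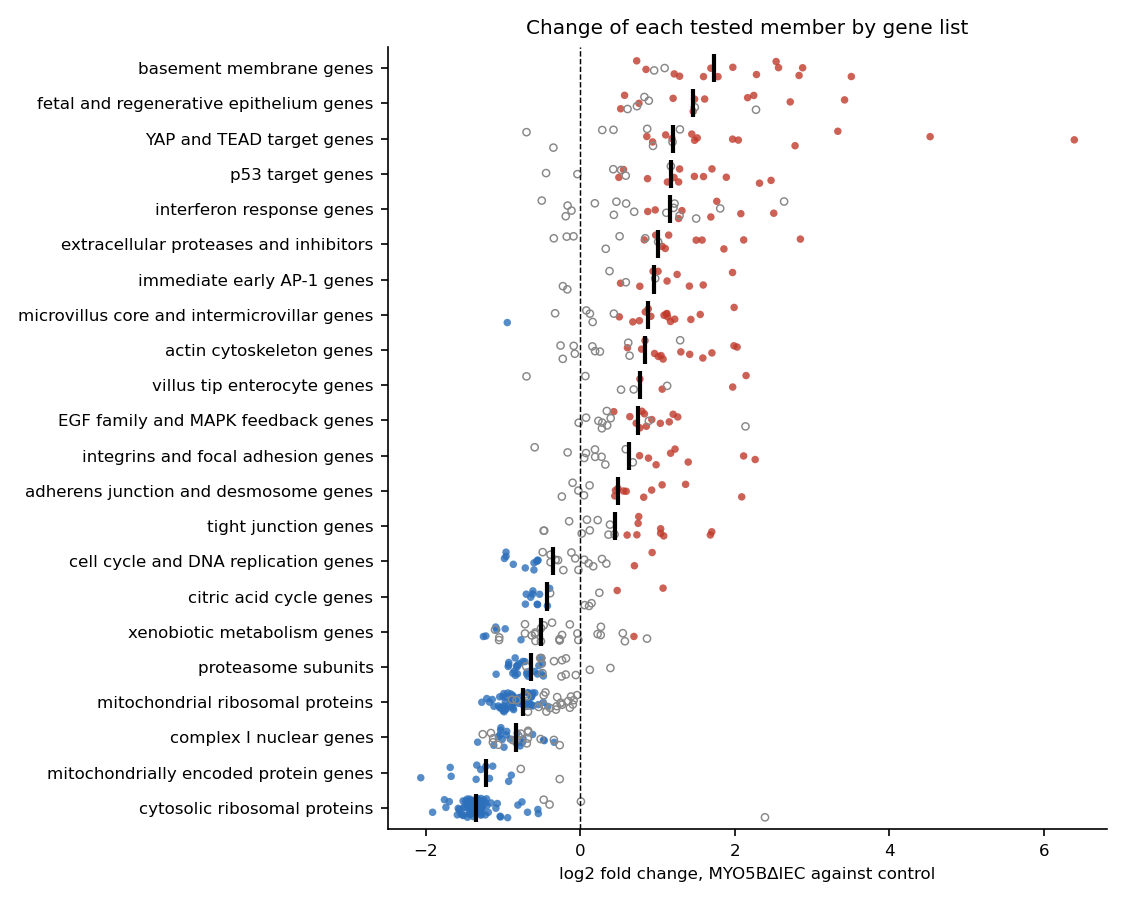
Log2 fold change (MYO5BΔIEC against control) of each tested member of 22 gene lists, 1 row a list and 1 point a gene, with called members filled, members not called open and the list median as a bar; the dashed line is the median of all 17951 genes. Basement membrane, fetal and regenerative, YAP and TEAD target and p53 target genes lie to the right (medians 1.74, 1.46, 1.19 and 1.17), and cytosolic ribosomal protein and mitochondrially encoded genes to the left (medians -1.35 and -1.22).

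Genes known as targets of YAP and TEAD, the transcriptional pair at the end of the Hippo pathway, rose in 13 of 21 cases with none lower (median 1.19). Ctgf, a secreted matrix protein and a standard readout of the pair, had 2.26, 0.87, 2.01 and 1.54 CPM in controls and 6.07, 15.6, 15.4 and 8.98 CPM in MYO5BΔIEC cultures (log2 fold change 2.78 ± 0.38 (SE), adjusted p = 0.00168). Ptpn14, a phosphatase that binds YAP, had 4.1, 2.22, 2.48 and 2.04 CPM in controls and 15.2, 45.3, 31.4 and 17.8 CPM in MYO5BΔIEC cultures. Myof, a membrane repair protein, had 12.8, 14, 11.2 and 11.1 CPM in controls and 43.4, 54.9, 57.2 and 36.9 CPM in MYO5BΔIEC cultures. In each of the 3 every MYO5BΔIEC culture exceeded every control, control 1 included. Cyr61 had a log2 fold change of 1.104 (adjusted p = 0.0207) and was not called without control 2, 3 or 4 or MYO5BΔIEC 2 or 4, adjusted p up to 0.0603. In the fits without 1 culture the number higher ran from 7 (without MYO5BΔIEC 2) to 17 (without control 1), and control 1 had the highest summed level among controls, 469 CPM against 159 CPM in the lowest control and 433 to 575 CPM in MYO5BΔIEC enteroids. Of the 4 TEAD genes tested 2 rose themselves, Tead3 (0.60) and Tead1 (0.77, not called without control 2, 3 or 4 or MYO5BΔIEC 1, 2 or 3, adjusted p up to 0.0828).

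Genes of the fetal epithelium, which are switched on again when the adult epithelium regenerates, gave 11 higher and none lower of 17 (median 1.46), and all 17 estimates were above 0. Clu, clusterin, which marks revival stem cells, had 12.7, 27.7, 31.2 and 33.4 CPM in controls and 168, 121, 111 and 97.9 CPM in MYO5BΔIEC cultures (log2 fold change 2.25 ± 0.29 (SE), adjusted p = 0.00144). Anxa1, which binds phospholipids and calcium, had 21.6, 15, 14.2 and 15.7 CPM in controls and 30.9, 52.6, 63.2 and 38.7 CPM in MYO5BΔIEC cultures, with no overlap between the groups. Ly6a, encoding the surface antigen Sca-1 that is widely used to mark this state, had 115, 14, 17.3 and 12.8 CPM in controls and 51.4, 165, 142 and 85.9 CPM in MYO5BΔIEC cultures. Its groups overlapped (log2 fold change 1.48 ± 0.69 (SE), adjusted p = 0.133). Of 11 annexin genes 5 rose, Anxa5 by 1.002 and Anxa8 by 2.55, and none fell. Without control 1 the number of fetal and regenerative genes higher was 16, and the lowest number with any culture left out was 6, without control 4.

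Growth factor and early response genes rose as well. Of 22 genes of the EGF family and of MAPK feedback 12 rose and none fell (median 0.75), and with 1 culture left out 7 (without control 2 or 4 or MYO5BΔIEC 2) to 19 (without control 1) rose. Egfr went from 34 to 57.9 CPM (0.77), its partner Erbb2 from 73.4 to 150.4 CPM (1.04) and Dusp6, a phosphatase that switches off ERK and is itself induced by it, from 23.6 to 56.6 CPM (1.26). Areg, an EGFR ligand, had a log2 fold change of 0.89 (adjusted p = 0.17). Of 14 immediate early genes of the AP-1 family and its companions 9 rose and none fell (median 0.96), Fosl1 with 1.87, 1.16, 0.867 and 0.86 CPM in controls and 2.54, 5.87, 4.23 and 6.08 CPM in MYO5BΔIEC cultures and Junb by 0.94. Zfp36, which destabilises messages of cytokines, rose by 1.12. Fos had a log2 fold change of 1.25 (adjusted p = 0.0199) and was not called without control 2, 3 or 4 or MYO5BΔIEC 2 or 3, adjusted p up to 0.0609. Jun had a log2 fold change of 0.59 (adjusted p = 0.0603). The summed EGF and MAPK list was 781 to 1460 CPM in controls, highest in control 1, and 1535 to 1710 CPM in MYO5BΔIEC enteroids. Extracellular proteases and their inhibitors gave 10 higher and none lower of 17 (median 1.01). Mmp15, a membrane protease, had 26.2, 25.5, 24 and 22 CPM in controls and 123, 123, 101 and 76 CPM in MYO5BΔIEC cultures (log2 fold change 2.11 ± 0.17 (SE), adjusted p = 0.000614). The matriptase gene St14 rose by 1.06, its inhibitor Spint1 by 1.0996, and the plasminogen activators Plat and Plau by 1.58 and 2.85.

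Promoters of these genes were read for the sites of AP-1 (TGANTCA) and TEAD (ACATTCC), on both strands, in a window of 250 bases before to 50 after the start given by RefSeq in build GRCm38.p6. Of 13747 protein-coding genes tested, 10743 have an entry. The AP-1 site was in 6.25% of the promoters of genes called higher, 3.63% of those of genes called lower and 5.18% of all. For the TEAD site the shares were 3.2%, 2.42% and 2.68%. The AP-1 site was in 4 of 13 protease and inhibitor genes with an entry and 2 of 10 fetal and regenerative genes, and in none of 11 immediate early genes, 6 keratin genes or 12 basement membrane genes. The TEAD site was in 3 of 14 YAP and TEAD target genes, and in none of 10 fetal and regenerative genes or 12 basement membrane genes. Of these 9 genes 5 rose. The other 4 were not called: Mmp7 (log2 fold change -0.34, adjusted p = 0.319) and Il1rn (log2 fold change 0.61, adjusted p = 0.269) with the AP-1 site, Ajuba (log2 fold change 1.19, adjusted p = 0.0811) and Amotl2 (log2 fold change 0.94, adjusted p = 0.0587) with the TEAD site. The following 4 lines show the site in capitals for 4 of the 5 that rose, chosen after their values were seen. The fifth was Spint1, a protease inhibitor (1.0996), with the AP-1 site. The 4 shown are Plaur, the urokinase receptor (1.14), Serpinb5, the protease inhibitor maspin (1.4996), Gja1, the gap junction protein connexin 43 (3.42), and Axl, a receptor tyrosine kinase, whose levels follow the sequences. The first 3 show the AP-1 site and the last the TEAD site, on the opposite strand. They lie at chr7:24462333-24462482, chr1:106861025-106861174 and chr10:56377150-56377299 on the plus strand, ending 1 base before the start, and at chr7:25788834-25788983 on the minus strand, from 250 to 101 bases before the start.
Plaur: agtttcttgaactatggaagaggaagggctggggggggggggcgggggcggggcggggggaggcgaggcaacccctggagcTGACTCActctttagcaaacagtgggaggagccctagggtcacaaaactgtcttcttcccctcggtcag
Serpinb5: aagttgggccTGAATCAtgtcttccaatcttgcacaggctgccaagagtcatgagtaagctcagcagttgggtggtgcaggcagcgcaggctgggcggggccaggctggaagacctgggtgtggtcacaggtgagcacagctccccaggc
Gja1: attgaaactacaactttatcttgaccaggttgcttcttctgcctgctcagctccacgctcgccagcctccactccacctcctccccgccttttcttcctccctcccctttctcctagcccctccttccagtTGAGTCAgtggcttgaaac
Axl: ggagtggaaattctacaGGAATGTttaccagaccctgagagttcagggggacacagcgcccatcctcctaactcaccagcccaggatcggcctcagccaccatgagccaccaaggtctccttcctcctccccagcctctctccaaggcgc
A match is a run of letters and not a measured binding site. Plaur went from 13.4 to 29.7 CPM, Serpinb5 from 5.85 to 16.6 CPM and Gja1 from 0.21 to 2.28 CPM. Axl, at or under the counting floor in most controls, had 0.0905, 0.0322, 0 and 0 CPM in controls and 0.642, 5.31, 4.33 and 1.77 CPM in MYO5BΔIEC cultures.

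Targets of p53 rose. Of 19 genes 13 rose and none fell (median 1.17). Cdkn1a, the cell cycle inhibitor p21, had 187, 129.9, 135 and 110.1 CPM in controls and 335, 530.0, 570.4 and 397 CPM in MYO5BΔIEC cultures (log2 fold change 1.70 ± 0.22 (SE), adjusted p = 0.00148). Zmat3, which encodes an RNA-binding protein, had 42.7, 25.9, 24.2 and 18.9 CPM in controls and 80.5, 193, 199 and 146 CPM in MYO5BΔIEC cultures. Phlda3, an inhibitor of AKT, had 13.2, 9.77, 10.3 and 8.82 CPM in controls and 24.6, 75.4, 52.9 and 57 CPM in MYO5BΔIEC cultures. Mdm2, the ubiquitin ligase that degrades p53, had 52, 49.8, 53.6 and 50.6 CPM in controls and 68.1, 128, 155 and 127 CPM in MYO5BΔIEC cultures (log2 fold change 1.21 ± 0.22 (SE), adjusted p = 0.00348). None of the 4 overlapped between groups, although control 1 was the highest control for Cdkn1a, Zmat3 and Phlda3. The summed level of the 19 genes was 941 to 1016 CPM in controls, with 1012 CPM in control 1. It was 1379 to 2762 CPM in MYO5BΔIEC enteroids, lowest in MYO5BΔIEC 1. Leaving out 1 culture gave 10 (without control 4 or MYO5BΔIEC 2) to 15 (without control 1) members higher. Zfp385a and Zfp365 were among the 12 largest rises of the 3134 genes defined above (3.86 and 5.95); both are zinc finger genes known to respond to p53. The knockout cultures alone had received 4-OH-tamoxifen, which also activates the Cre, so this rise cannot be told apart from that exposure.

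Cell cycle genes moved in both directions. Of 26 genes 10 fell and 2 rose (median -0.35), and with 1 culture left out 6 (without control 2, 3 or 4 or MYO5BΔIEC 2) to 13 (without MYO5BΔIEC 4) fell. Pcna, the replication clamp, had 294, 479, 527 and 490.1 CPM in controls and 244, 249.8, 255 and 232 CPM in MYO5BΔIEC cultures (log2 fold change -0.87 ± 0.19 (SE), adjusted p = 0.00757). Birc5, survivin, fell by 0.96 and Cdk1 by 0.98 on the log2 scale. Ccnd1, the cyclin of the first gap phase, had 144, 120.0, 102 and 101 CPM in controls and 169, 257, 223 and 241 CPM in MYO5BΔIEC cultures (log2 fold change 0.93 ± 0.18 (SE), adjusted p = 0.00441). Mki67, a general marker of cycling cells, had a log2 fold change of -0.22 (adjusted p = 0.256). Of 36 kinesin genes 7 rose and 4 fell. Kif18a (-1.17), Kif20b (-0.78) and Kif11 (-0.64, not called without MYO5BΔIEC 2, adjusted p up to 0.0517), motors of the mitotic spindle, were among those that fell. Among those that rose were Kif1c (1.05) and Kif13b (1.56), which carry vesicles.

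**Figure D4:**
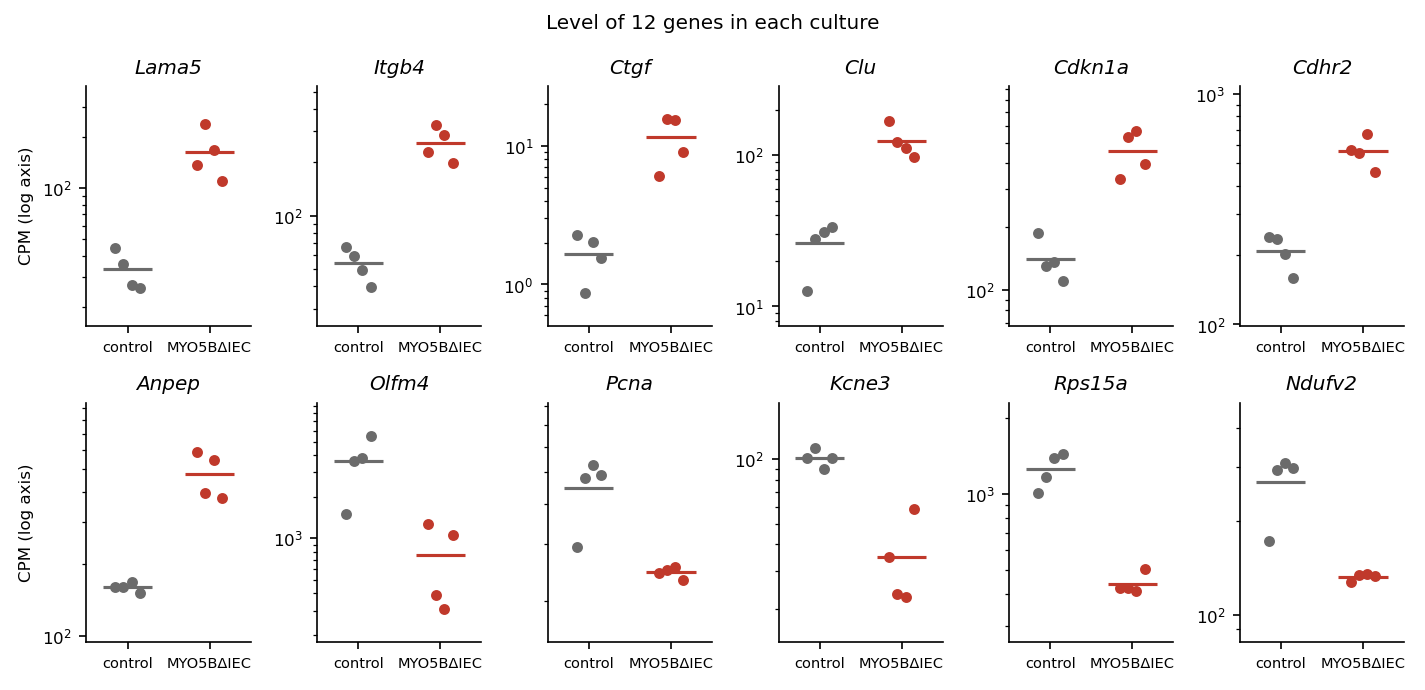
Level of 12 genes in each of the 8 cultures (CPM, log axis), controls in grey and MYO5BΔIEC cultures in red, with a line at the group mean. Lama5, Itgb4, Ctgf, Clu, Cdkn1a, Cdhr2 and Anpep are higher and Olfm4, Pcna, Kcne3, Rps15a and Ndufv2 lower in MYO5BΔIEC enteroids, each with no overlap between groups.

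Genes that build microvilli rose. Of 21 genes of the microvillus core and of the links between microvilli 15 rose and 1 fell (median 0.88). Cdhr2, a cadherin that joins neighbouring microvilli, had 239, 235, 203 and 159 CPM in controls and 569, 553, 672 and 460.1 CPM in MYO5BΔIEC cultures. Its partner Cdhr5 had 145, 133, 114 and 104 CPM in controls and 407, 308, 393 and 349 CPM in MYO5BΔIEC cultures. Vil1, the actin bundler villin whose promoter drives the Cre here, had 270.4, 436, 404 and 377 CPM in controls and 899, 788, 867 and 598 CPM in MYO5BΔIEC cultures (log2 fold change 1.08 ± 0.20 (SE), adjusted p = 0.0038). Ezr, which ties the membrane to actin, rose by 1.11, Myo7b, the motor of the tip complex, by 1.17, and Myo1a by 0.76 (not called without control 4, adjusted p up to 0.0502). The only member lower was Calml4, a light chain of that complex (log2 fold change -0.95, adjusted p = 0.0226, not called without control 2, 3 or 4 or MYO5BΔIEC 1, 2 or 4, adjusted p up to 0.0664). Control 1 did not differ from the other controls here, at 3279 CPM for the summed list against 3274 to 3817 CPM in all controls and 5134 to 6765 CPM in MYO5BΔIEC enteroids, and 12 to 16 members were called higher with 1 culture left out.

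Of 24 genes of apical recycling and trafficking, the pathway that MYO5B serves, 5 rose and 2 fell, with a median of 0.08. Rab11fip1, an effector of RAB11, had 74.3, 67.7, 66.6 and 61.1 CPM in controls and 166, 147, 145 and 124 CPM in MYO5BΔIEC cultures (log2 fold change 1.11 ± 0.13 (SE), adjusted p = 0.00142). Slc9a3r1, the scaffold NHERF1 under the apical membrane, went from 199 to 357 CPM. Rab11a itself had a log2 fold change of 0.21 (adjusted p = 0.391) and Stx3, the apical fusion protein, a log2 fold change of 0.25 (adjusted p = 0.185). Rab25, an epithelial relative of RAB11, had a log2 fold change of -0.51 (adjusted p = 0.0258) and was not called without control 2, 3 or 4 or MYO5BΔIEC 1, 2 or 3, adjusted p up to 0.0798. Over all 52 Rab genes tested 6 rose (11.5%) and 5 fell (9.62%), against 13.5% and 13.8% of all genes. Rab31 (1.38) and Rab28 (-0.62) were among them. Of 27 lysosome and autophagy genes 11 rose (5 (without control 2, 3 or 4 or MYO5BΔIEC 1, 2 or 3) to 12 (without control 1) with 1 culture left out) and 2 fell. Neu1, a sialidase, rose by 0.93, Ulk1, the kinase that starts autophagy, by 0.90 and Atp6v0d1, of the proton pump, by 0.79. Lamp1, of the lysosome membrane, had a log2 fold change of 0.53 (adjusted p = 0.0379) and was not called without control 2, 3 or 4 or MYO5BΔIEC 1, 2 or 3, adjusted p up to 0.113. Sqstm1, an autophagy receptor, had a log2 fold change of 0.34 (adjusted p = 0.497).

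Digestive and absorptive genes gave a mixed picture. Of 18 brush border hydrolases 4 rose and none fell (median 0.42). Anpep, aminopeptidase N, had 161, 160.0, 168 and 151 CPM in controls and 589.7, 395, 545 and 379.6 CPM in MYO5BΔIEC cultures (log2 fold change 1.58 ± 0.18 (SE), adjusted p = 0.0014). Alpi, intestinal alkaline phosphatase, had 158, 352, 463 and 252 CPM in controls and 839, 735, 772 and 537 CPM in MYO5BΔIEC cultures. Mgam, maltase-glucoamylase, rose by 0.98. Lct, lactase, had a log2 fold change of 1.08 (adjusted p = 0.095) and Dpp4, dipeptidyl peptidase 4, a log2 fold change of -0.35 (adjusted p = 0.292). Of 26 villus enterocyte markers 5 rose and none fell (median 0.24). The fatty acid binding protein gene Fabp1 had 236, 4313, 3551 and 3842 CPM in controls and 1587, 952, 961 and 559.5 CPM in MYO5BΔIEC cultures, a wide and overlapping spread (log2 fold change -1.56 ± 0.65 (SE), adjusted p = 0.0996). Sis, sucrase-isomaltase, had a log2 fold change of -0.42 (adjusted p = 0.466), and Apoa1, an apolipoprotein of chylomicrons, had a log2 fold change of -0.02 (adjusted p = 0.984). The summed level of these markers was lowest in control 1, 7712 CPM against 31474 CPM in the highest control and 13620 to 24034 CPM in MYO5BΔIEC enteroids, and without control 1 the count became 5 higher and 6 lower.

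Enterocyte genes of the villus tip and of the villus bottom were read apart. Of 9 genes of the villus tip 4 rose and none fell (median 0.77). Ada, adenosine deaminase, had 37.8, 72.2, 46.2 and 28.4 CPM in controls and 237, 223, 218 and 139 CPM in MYO5BΔIEC cultures (log2 fold change 2.15 ± 0.28 (SE), adjusted p = 0.00149). Slc28a2, a nucleoside transporter, had 20.8, 15.1, 20.1 and 16.1 CPM in controls and 71, 77.8, 98.4 and 35.8 CPM in MYO5BΔIEC cultures. Klf4, a factor of terminal differentiation, rose by 1.06, and Nt5e, an ectonucleotidase, had a log2 fold change of -0.70 (adjusted p = 0.677). At the villus bottom 2 of 8 genes fell and none rose (median -0.998), Reg3a (log2 fold change -1.84, adjusted p = 0.0273) and Ccl25 (log2 fold change -1.03, adjusted p = 0.0233). Reg3a was not called without control 2, 3 or 4 or MYO5BΔIEC 2, 3 or 4, adjusted p up to 0.0793, and Ccl25 was not called without control 2, 3 or 4 or MYO5BΔIEC 1, 2 or 4, adjusted p up to 0.075. Their neighbours Reg3b and Reg3g had a log2 fold change of -0.96 (adjusted p = 0.378) and a log2 fold change of -1.25 (adjusted p = 0.0631). For the tip genes, too, control 1 was the lowest control, at 489 CPM summed against at most 1291 CPM in controls and 1324 to 2890 CPM in MYO5BΔIEC enteroids.

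Ion transport genes showed opposite changes within the same function. Of 23 genes of sodium, chloride and bicarbonate transport 8 rose and 2 fell (median 0.51), and with 1 culture left out 5 (without control 4) to 13 (without control 1) rose. The sodium-proton exchangers Slc9a2 and Slc9a3 rose, the first by 1.20 and the second with a log2 fold change of 0.85 (adjusted p = 0.0259), not called without control 4 or MYO5BΔIEC 1 or 3, adjusted p up to 0.0706. Slc4a2, an anion exchanger of the basolateral side, rose by 0.79. Kcne3, the potassium channel subunit that sustains chloride secretion, had 101, 113, 90.1 and 101 CPM in controls and 35.1, 23.6, 22.7 and 58.2 CPM in MYO5BΔIEC cultures (log2 fold change -1.53 ± 0.27 (SE), adjusted p = 0.00358). Slc26a3, the apical chloride-bicarbonate exchanger, had 82.7, 155, 131 and 135 CPM in controls and 57.5, 44.2, 79 and 78.7 CPM in MYO5BΔIEC cultures (log2 fold change -0.96 ± 0.23 (SE), adjusted p = 0.0128). Cftr, the apical chloride channel, had a log2 fold change of -0.70 (adjusted p = 0.0943). Over all 283 solute carrier genes tested 54 rose and 11 fell, and with 1 culture left out 35 (without control 3 or 4) to 91 (without control 1) rose and 4 (without control 2 or MYO5BΔIEC 2) to 27 (without control 1) fell. The largest called rise among them was that of Slc4a11, a proton and water transporter, at 1.39, 1.39, 0.495 and 0.753 CPM in controls and 8.52, 27.6, 26.6 and 15.4 CPM in MYO5BΔIEC cultures. Slc16a12, a monocarboxylate transporter, had one of the 12 largest falls of the 3134 genes defined above, at 15.6, 16.8, 22.3 and 19.8 CPM in controls and 7.998, 3.49, 4.68 and 7.48 CPM in MYO5BΔIEC cultures. Sugar, peptide and amino acid transporters of the brush border gave 2 higher (9.52%) and 1 lower (4.76%) of 21, below the shares of all genes. Slc5a1, the sodium-glucose transporter, had a log2 fold change of 0.55 (adjusted p = 0.187). Slc2a2, the hexose carrier, had a log2 fold change of -0.08 (adjusted p = 0.868) and Slc15a1, the peptide carrier, a log2 fold change of 0.74 (adjusted p = 0.141).

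**Figure D5:**
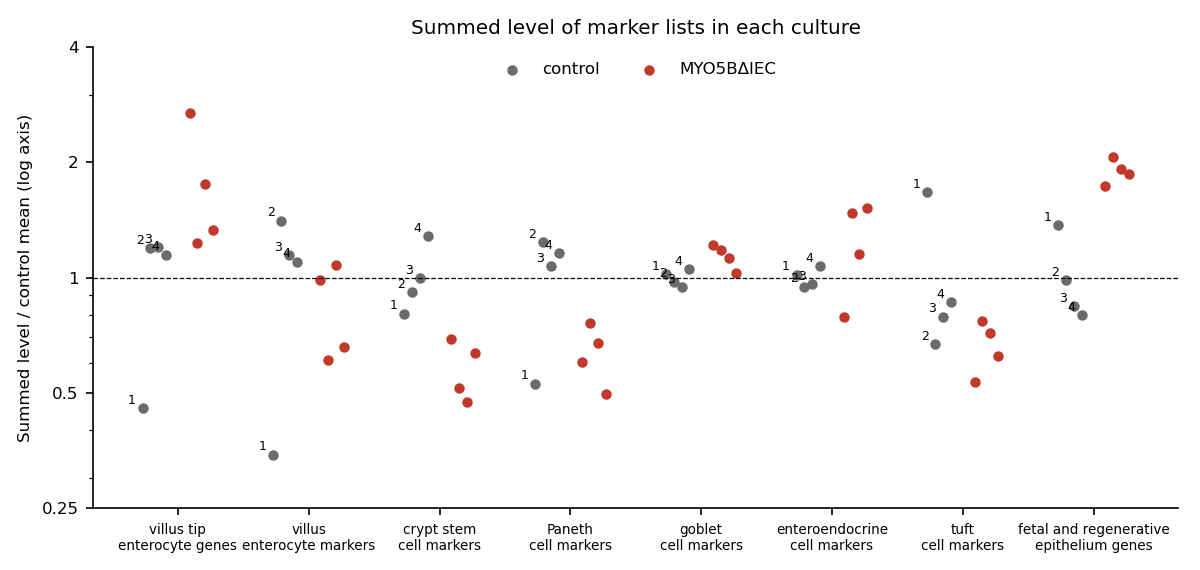
Summed level of marker lists in each culture, divided by the mean of the 4 controls (log axis), for villus tip and villus enterocyte, crypt stem, Paneth, goblet, enteroendocrine and tuft cell markers and fetal and regenerative genes; controls in grey, MYO5BΔIEC cultures in red, with the number of the control culture beside its point. Fetal and regenerative genes (692 to 1185 CPM in controls and 1499 to 1785 CPM in MYO5BΔIEC enteroids), villus tip genes and stem cell markers are the lists without overlap.

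Crypt markers split by gene. Olfm4, a secreted glycoprotein of active stem cells, had the largest fall of the 3134 genes defined above, with 1509.7, 3634, 3811 and 5525 CPM in controls and 1259.8, 388, 307 and 1061 CPM in MYO5BΔIEC cultures (log2 fold change -2.26 ± 0.51 (SE), adjusted p = 0.00896). Of 19 stem cell markers 5 rose and 2 fell. Lgr5, the defining receptor of these cells, had 275, 119.6, 156 and 156 CPM in controls and 213, 210.3, 203 and 161 CPM in MYO5BΔIEC cultures (log2 fold change 0.16 ± 0.24 (SE), adjusted p = 0.665), so its groups overlapped. Sox9, Rnf43 and Ephb2, which respond to Wnt, rose by 0.63, 0.61 and 0.77. The summed list was 5347 to 8513 CPM in controls and 3136 to 4577 CPM in MYO5BΔIEC enteroids, and Olfm4 made up much of it, at 3620.0 ± 1645 CPM (SD, n = 4) in controls and 754 ± 477 CPM in MYO5BΔIEC enteroids.

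Secretory lineages differed, with most Paneth cell estimates below 0 and goblet cell markers split. Of 15 Paneth cell markers 3 fell and none rose (median -0.53), and 14 of the 15 estimates were below 0. Their summed level was 3557 CPM in control 1, inside the 3339 to 5110 CPM of MYO5BΔIEC enteroids, and up to 8321 CPM in the other controls. Lyz1, lysozyme, had 1428, 2969.9, 2241 and 2185 CPM in controls and 1141, 1491, 1584 and 1040.0 CPM in MYO5BΔIEC cultures. Itln1, intelectin, had 901, 1964, 1859 and 1940.5 CPM in controls and 911, 1051, 948 and 835 CPM in MYO5BΔIEC cultures. Both overlapped between groups, with control 1 the lowest control. Lyz1 was not called without control 2, 3 or 4 or MYO5BΔIEC 1, 2 or 4, adjusted p up to 0.12, and Itln1 was not called without control 2, 3 or 4 or MYO5BΔIEC 1, 2, 3 or 4, adjusted p up to 0.0784. Mmp7, which processes defensins, had a log2 fold change of -0.34 (adjusted p = 0.319). Defensin genes are near-identical copies whose reads the counting can split, so their single values are uncertain. Of 20 goblet cell markers 4 rose and 5 fell, with 9 estimates above 0 and 11 below. Clca1, a secreted mucus protein, had 34.6, 35.2, 38.3 and 36.4 CPM in controls and 134, 102, 97.7 and 108 CPM in MYO5BΔIEC cultures (log2 fold change 1.61 ± 0.14 (SE), adjusted p = 0.000614). In contrast Agr2, the disulfide isomerase of mucin folding, had 198, 243, 233 and 282 CPM in controls and 109.6, 129, 133 and 119.9 CPM in MYO5BΔIEC cultures (log2 fold change -0.96 ± 0.15 (SE), adjusted p = 0.00207). Klk1, a kallikrein protease, went from 37.3 to 9.15 CPM (-2.03). Muc2, the main secreted mucin, had a log2 fold change of 0.66 (adjusted p = 0.3), Tff3 a log2 fold change of -0.53 (adjusted p = 0.0821) and Atoh1, the factor that sets secretory fate, a log2 fold change of -0.43 (adjusted p = 0.0933).

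Enteroendocrine markers gave 3 higher (11.1%, against 13.5% of all genes) and none lower of 27. Chga, chromogranin A, had 72.1, 30.5, 39.5 and 35.6 CPM in controls and 68.5, 132, 89 and 132 CPM in MYO5BΔIEC cultures (log2 fold change 1.24 ± 0.29 (SE), adjusted p = 0.0116), with overlap between the groups. Chgb, of the same granules, had a log2 fold change of 0.70 (adjusted p = 0.0485) and was not called without control 2, 3 or 4 or MYO5BΔIEC 2, 3 or 4, adjusted p up to 0.144. Neurog3, the factor that starts the lineage, had a log2 fold change of 0.27 (adjusted p = 0.414). Of 15 tuft cell markers 3 fell and 1 rose (median -0.56), and 13 of the 15 estimates were below 0. Rgs13, a regulator of G protein signals, had 6.27, 3.26, 3.25 and 4.09 CPM in controls and 1.14, 1.23, 0.853 and 1.56 CPM in MYO5BΔIEC cultures (log2 fold change -1.81 ± 0.31 (SE), adjusted p = 0.00289). Lrmp had 9.02, 3.38, 6.35 and 5.52 CPM in controls and 2.22, 2.61, 2.36 and 1.85 CPM in MYO5BΔIEC cultures. Dclk1 and Trpm5, the markers in widest use, had a log2 fold change of -0.21 (adjusted p = 0.731) and a log2 fold change of -0.25 (adjusted p = 0.483). Tuft cell markers were low in every culture, 40.3 to 101 CPM summed in controls, highest in control 1, and 32.0 to 46.3 CPM in MYO5BΔIEC enteroids. Of 7 gastric markers tested 1 rose, Cldn18, a claudin of the stomach, from 0.645 to 2.39 CPM, and 1 fell, Gkn3 (log2 fold change -1.73, adjusted p = 0.0491, not called without control 2, 3 or 4 or MYO5BΔIEC 1, 2, 3 or 4, adjusted p up to 0.151). Muc1 had a log2 fold change of -0.70 (adjusted p = 0.477). Of 8 M cell markers 2 rose, Anxa5 and Tnfaip2 (1.58), and 2 fell, Ccl9 (-2.40) and Ccl20 (log2 fold change -0.60, adjusted p = 0.0487, not called without control 2, 3 or 4 or MYO5BΔIEC 1, 2 or 3, adjusted p up to 0.142). Spib, the factor that makes M cells, had a log2 fold change of -0.89 (adjusted p = 0.293). Regional genes gave 3 higher of 8 for the proximal intestine, where Gata4 had a log2 fold change of 0.42 (adjusted p = 0.0704). For the distal intestine 1 of 5 was higher, the bile acid carrier gene Slc10a2 (1.83), with Fabp6 at a log2 fold change of -2.57 (adjusted p = 0.133). Membrane mucins gave 2 higher of 6, Muc4 (1.35) and Muc3 (log2 fold change 1.29, adjusted p = 0.0385, not called without control 3 or 4 or MYO5BΔIEC 1, 2 or 3, adjusted p up to 0.117). Muc13 had a log2 fold change of 0.00 (adjusted p = 0.999). Of 21 Notch pathway genes 6 rose and none fell (median 0.21). The effector Hes1 had a log2 fold change of -0.25 (adjusted p = 0.282). The ligands Dll1 and Dll4 had a log2 fold change of -0.02 (adjusted p = 0.958) and a log2 fold change of -0.08 (adjusted p = 0.787).

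Among lipid genes the shares called were near or below those of all genes, 13.5% higher and 13.8% lower, except for fatty acid synthesis genes called higher. Of 27 genes of dietary lipid absorption 4 rose (14.8%) and 2 fell (7.41%). Control 1 was far below the other controls for this list, with a summed level of 3945 CPM against 12556 to 15665 CPM, and 7960 to 13352 CPM in MYO5BΔIEC enteroids. Without control 1, 4 rose and 7 fell. Dgat2, an enzyme of triglyceride synthesis, had 49.96, 62.2, 53.2 and 47.4 CPM in controls and 197, 114, 136 and 109.8 CPM in MYO5BΔIEC cultures (log2 fold change 1.39 ± 0.20 (SE), adjusted p = 0.00171). Its paralog Dgat1, the main enteric enzyme, had a log2 fold change of 0.03 (adjusted p = 0.931). Npc1l1, the apical cholesterol transporter, rose from 102 to 231 CPM (1.18). Cd36, a fatty acid receptor, had 11.3, 44.1, 28.5 and 29 CPM in controls and 13.7, 6.02, 11.3 and 5.59 CPM in MYO5BΔIEC cultures, an overlapping and variable fall (log2 fold change -1.63 ± 0.40 (SE), adjusted p = 0.0142). Apob and Mttp, which assemble chylomicrons, had a log2 fold change of 0.45 (adjusted p = 0.351) and a log2 fold change of 0.35 (adjusted p = 0.349). In fatty acid oxidation 4 of 31 rose and 4 fell (12.9% each; 12 fell without control 1), Cpt1a, which admits fatty acids to mitochondria, from 63.2 to 107 CPM (0.76) against Eci1 and Decr1, auxiliary enzymes for unsaturated chains (-0.72 and -0.71). Acadm had a log2 fold change of -0.50 (adjusted p = 0.125). Fatty acid synthesis gave 4 higher (22.2%) and 1 lower (5.56%) of 18. Acaca, the committed enzyme, was at 0.64 and the desaturase gene Scd1 at a log2 fold change of -0.02 (adjusted p = 0.968). Glycolysis gave 5 higher and none lower of 19, with Hk1 at 1.55, Pfkm at 0.60, and Hk2 at a log2 fold change of 1.07 (adjusted p = 0.0208), not called without control 2, 3 or 4 or MYO5BΔIEC 2, adjusted p up to 0.0652. Neither Ldha (log2 fold change -0.40, adjusted p = 0.102) nor the glucose carrier gene Slc2a1 (log2 fold change 0.73, adjusted p = 0.109) was called.

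Detoxification and retinoid genes gave more falls than rises. In the lists and families given here 18.2% to 33.3% were called lower, against 13.8% of all genes. Of 33 xenobiotic metabolism genes 6 fell (18.2%) and 1 rose (median -0.51). Cyp2b10 had 126, 299, 268 and 336 CPM in controls and 125, 73.3, 116 and 117 CPM in MYO5BΔIEC cultures (log2 fold change -1.26 ± 0.28 (SE), adjusted p = 0.00931). Its relative Cyp2c66 had a log2 fold change of -1.08. Cyp3a13 and the efflux pump gene Abcg2 had a log2 fold change of 0.86 (adjusted p = 0.079) and a log2 fold change of -0.59 (adjusted p = 0.0819). Without control 1, 19 of the 33 were lower, and without control 4, 2. UDP glucuronosyltransferases gave 5 lower (33.3%) and none higher of 15, Ugt2b36 at -1.71 and Ugt1a9 at -2.43. Glutathione S-transferases gave 4 lower of 20 (20%), Gstm5 at -0.81 (not called without control 3 or 4 or MYO5BΔIEC 1 or 2, adjusted p up to 0.055). Members of each family share sequence, and the counting can split their reads. Cyp26b1, which degrades retinoic acid, was among the 12 largest rises of the 3134 genes defined above with 3.23, 1.06, 1.58 and 0.825 CPM in controls and 12.7, 37.5, 40.6 and 4.17 CPM in MYO5BΔIEC cultures (log2 fold change 3.81 ± 0.69 (SE), adjusted p = 0.00387). In contrast Lrat, which stores retinol as esters, had 3.71, 10.1, 7.4 and 7.82 CPM in controls and 3.3, 2.52, 3.65 and 1.91 CPM in MYO5BΔIEC cultures (log2 fold change -1.35 ± 0.32 (SE), adjusted p = 0.0118). Retinoid genes as a list gave 2 higher and 3 lower (23.1%) of 13, and Rbp2, the retinol-binding protein of enterocytes, had a log2 fold change of -0.68 (adjusted p = 0.418). Of 9 gluconeogenesis and fructose genes 3 fell (33.3%) and none rose, Fbp1 by 1.11 (not called without MYO5BΔIEC 2, adjusted p up to 0.0564). Khk had a log2 fold change of -0.82 (adjusted p = 0.132) and Pck1 a log2 fold change of -0.15 (adjusted p = 0.86). In amino acid metabolism 5 of 21 genes fell (23.8%) and 2 rose. Hpd, of tyrosine breakdown, had 12.1, 10.4, 12.7 and 15.6 CPM in controls and 2.86, 3.08, 3.24 and 4.93 CPM in MYO5BΔIEC cultures. Ass1, of arginine synthesis, rose by 1.76. Cps1, of the urea cycle, had a log2 fold change of -0.69 (adjusted p = 0.0215) and was not called without control 3 or MYO5BΔIEC 2 or 3, adjusted p up to 0.0728. Arg2 had a log2 fold change of -1.16 (adjusted p = 0.134).

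Immune-related transcripts of the epithelium differed in direction by list. Of 24 interferon response genes 8 rose and none fell (median 1.16). Irf7, the factor that amplifies the response, had 13.4, 16, 10.03 and 7.31 CPM in controls and 39, 56.4, 41.7 and 13.4 CPM in MYO5BΔIEC cultures (log2 fold change 1.69 ± 0.38 (SE), adjusted p = 0.00967). Ddx58, the RNA sensor RIG-I, went from 18.7 to 34.2 CPM (0.87). Isg15 had a log2 fold change of 1.21 (adjusted p = 0.129). Leaving out 1 culture gave 2 (without control 4 or MYO5BΔIEC 2) to 15 (without MYO5BΔIEC 4) of these genes. The summed level of the interferon list was 213 to 278 CPM in controls and 230 to 469 CPM in MYO5BΔIEC enteroids. MYO5BΔIEC 4 was the lowest of its group, within the range of the controls. Of 14 antigen presentation genes 5 rose, with the peptide transporter genes Tap1 (1.48) and Tap2 (0.94), and 1 fell, B2m (log2 fold change -0.68, adjusted p = 0.044, not called without control 2, 3 or 4 or MYO5BΔIEC 1, 2 or 4, adjusted p up to 0.116). Cd74 had a log2 fold change of 0.96 (adjusted p = 0.132). Chemokines and NF-kB genes gave 10 higher and 4 lower of 26. The summed level of that list was 2066 to 3435 CPM in controls and 1949 to 2532 CPM in MYO5BΔIEC enteroids. Cxcl16 had 18.1, 23.6, 20.1 and 14 CPM in controls and 43.2, 39.3, 48.6 and 42.3 CPM in MYO5BΔIEC cultures (log2 fold change 1.19 ± 0.17 (SE), adjusted p = 0.00174). Icam1, a leukocyte adhesion molecule, had 0.362, 0.226, 0.65 and 0.681 CPM in controls and 1.66, 4.75, 3.41 and 4.78 CPM in MYO5BΔIEC cultures, and Nfkb2 rose by 1.19. In contrast Ccl28, a chemokine for plasma cells, had 41, 56.5, 67.4 and 76.7 CPM in controls and 26, 25.7, 35.7 and 30.4 CPM in MYO5BΔIEC cultures (log2 fold change -1.04 ± 0.20 (SE), adjusted p = 0.00485). Cxcl1, a chemokine for neutrophils, had a log2 fold change of 1.43 (adjusted p = 0.159). Casp1 and Pycard, the protease and the adaptor of the inflammasome, had log2 fold changes of -0.87 and -1.53 in a list that gave 1 higher and 2 lower of 14. Gsdmd, the pore protein that the protease cleaves, had a log2 fold change of 0.37 (adjusted p = 0.249). Antimicrobial genes gave 2 lower and none higher of 9.

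Stress response genes gave few calls. Of 22 genes of the unfolded protein and integrated stress responses 2 fell and none rose (median -0.40). Control 1 stood apart, with a summed level of 5652 CPM against 3428 to 4007 CPM in the other controls and 2455 to 4197 CPM in MYO5BΔIEC enteroids. Without control 1, 4 were called higher and 2 lower (median -0.06), and the number lower ran from 0 (without control 2, 3 or 4 or MYO5BΔIEC 1 or 2) to 6 (without MYO5BΔIEC 4). Hspa5, the chaperone BiP, had a log2 fold change of -0.46 (adjusted p = 0.0697), Atf4 a log2 fold change of -0.56 (adjusted p = 0.131) and Ddit3 a log2 fold change of -0.56 (adjusted p = 0.473). None of 13 hypoxia genes was called by edgeR or DESeq2, 2 had an unadjusted p under 0.05, and 5 were called higher without control 1. Vegfa had a log2 fold change of -0.23 (adjusted p = 0.532). Of 15 circadian clock genes 6 rose and 1 fell. Per1 went from 14 to 31 CPM (1.14), Npas2 from 16.7 to 41.1 CPM (1.30) and Nr1d1, a repressor of the clock, from 18.6 to 34.3 CPM (0.88). Arntl, the activator that it represses, went from 18.5 to 9.91 CPM (-0.90). Dbp, an output of the clock, had a log2 fold change of 0.64 (adjusted p = 0.0894). Of 17 NRF2 antioxidant genes 3 rose and 1 fell, with Txnrd1 at 0.83 and Nqo1 at a log2 fold change of -0.73 (adjusted p = 0.0695). Iron handling gave 2 higher of 10, Cybrd1, the apical iron reductase, from 134 to 476 CPM (1.83), and Slc40a1, the iron exporter. The latter had a log2 fold change of 1.44 (adjusted p = 0.0303) and was not called without control 2, 3 or 4 or MYO5BΔIEC 2 or 3, adjusted p up to 0.0919. In the BMP and TGF-beta pathway Bmp2 (1.74), Tgfbr2 (1.04) and Smad3 (0.85) rose against a fall of Tgfbr1 (-0.67), with 5 higher and 1 lower of 17. Tgfb1 and the BMP target Id1 had a log2 fold change of 0.53 (adjusted p = 0.277) and a log2 fold change of -0.10 (adjusted p = 0.814).

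Transcription factors as a class gave 147 higher and 147 lower of 971, but families differed in their counts. Of 9 genes of the RHD family, which holds the NF-kB and NFAT factors, 6 rose, Nfatc2 by 1.63 and Rela by 0.79 (not called without control 2, 3 or 4 or MYO5BΔIEC 1, 2 or 4, adjusted p up to 0.0791) among them. The bZIP family gave 14 higher and 2 lower of 43, with Creb3l2 (1.24) at the smallest p. The ARID family gave 6 higher and none lower of 14, with Arid1a (0.93). The homeobox family gave 10 higher (15.6%) and 2 lower (3.12%) of 64, against 15.1% each way over all transcription factors. Hopx was among the lower (-0.70, not called without control 3 or 4, adjusted p up to 0.0569). The nuclear receptors classed as THR-like gave 5 higher and 1 lower of 18, Rarg (1.83) and Ppard (1.41) rising and Nr1h4, the bile acid receptor FXR, falling (-0.59, not called without MYO5BΔIEC 2, adjusted p up to 0.0504). In contrast, the C2H2 zinc finger family gave 34 higher and 110 lower of 442. Genes with a Zfp symbol gave 98 lower and 28 higher of 348 (lower without 1 culture, 53 (without control 4) to 119 (without control 1)), Zfp948 at -1.06 and Zfp472 at -1.30. Enterocyte factors gave 9 higher (4 (without control 4 or MYO5BΔIEC 2) to 14 (without control 1) with 1 culture left out) and 2 lower of 32. Hnf4a had a log2 fold change of 0.34 (adjusted p = 0.101) and Cdx2 a log2 fold change of 0.29 (adjusted p = 0.169). By chromosome the share lower was highest on the X chromosome among the autosomes and X (21.5% of 526 genes, with 7.41% higher) and next on chromosome 13 (19.5% of 734, with 6.4% higher). Each group held 2 female and 2 male cultures by Xist and Y-linked counts.

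The 12 largest rises among the 3134 called protein-coding genes of at least 5 CPM whose groups did not overlap had log2 fold changes of 3.81 to 6.05. Ano3, of the anoctamin family of channels and scramblases, had 0, 0.129, 0.433 and 0.323 CPM in controls and 2.6, 23.1, 24.1 and 9.18 CPM in MYO5BΔIEC cultures (log2 fold change 6.05 ± 0.86 (SE), adjusted p = 0.00175). Mcam, a cell adhesion molecule, had 0.513, 0.935, 2.01 and 1.58 CPM in controls and 16.4, 79.6, 60.4 and 54.9 CPM in MYO5BΔIEC cultures. Crip2, a LIM domain protein, had 0.965, 0.87, 1.8 and 0.896 CPM in controls and 10.5, 40.2, 36.5 and 28.2 CPM in MYO5BΔIEC cultures. All 3 were low or near absent in controls and present in every MYO5BΔIEC culture. Abcb1b, a drug efflux pump, had 0.0905, 0.87, 1.08 and 0.43 CPM in controls and 3.47, 19.3, 20.1 and 10.6 CPM in MYO5BΔIEC cultures. Its paralog Abcb1a had a log2 fold change of 0.69 (adjusted p = 0.0142) and was not called without control 3, adjusted p up to 0.0508. Ddit4l, an inhibitor of mTOR signalling, had 0.241, 1.39, 1.02 and 0.394 CPM in controls and 5.69, 17.9, 18.6 and 16.2 CPM in MYO5BΔIEC cultures. The remaining rises were those of Stox2 (4.86), Notch3 (4.31) and Ahnak2 (3.99) beside Zfp365, Slc4a11, Zfp385a and Cyp26b1. The 12 largest falls were smaller, -1.65 to -2.26, and held 4 ribosomal protein genes, Rpl17 (-1.91) among them, the mitochondrially encoded mt-Co2 and mt-Atp6 (-1.68), beside Olfm4, Klk1, Hpd and Slc16a12. The other 2 were Mptx2, a pentraxin of Paneth cells, at 22.3, 18.3, 27.4 and 27.5 CPM in controls and 10.3, 7.43, 3.96 and 6.4 CPM in MYO5BΔIEC cultures, and Ttr, the carrier of thyroxine and retinol-binding protein (-1.69).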

How the data were processed

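RNA was sequenced from jejunal enteroids of 16 cultures, of which the 4 control and 4 MYO5BΔIEC cultures, each group from 4 mice, were compared. Per the labels and methods, the authors aligned reads to GRCm38 with STAR 2.5 and deposited whole-number counts of reads per gene made with HTSeq 0.6.1, together with gene lengths in bases and FPKM values (counts scaled to gene length and library size) that the authors computed from them. The submitters' processing notes also name TopHat and DESeq2. Strand setting and the treatment of reads that match several genes were not given in the sources used here. Columns were matched to samples by their titles.

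From the deposited counts, genes that reached 10 counts in 2 or more of the 8 libraries were kept (17951 of 54532), and groups were compared with edgeR 4.0.16 in R 4.3.3 (TMM scaling, quasi-likelihood F test, two-sided). P-values were adjusted by Benjamini-Hochberg over all genes tested, and a gene was called at an adjusted p under 0.05. The test was checked on simulated counts for 17951 genes, of which 66 were changed by 4-fold, 67 by 2-fold and 67 by 1.5-fold. The shares called were 71.2%, 22.4% and 4.48%, with 5 false calls. Far fewer genes were changed than the 4910 called in the data, which makes the adjusted threshold stricter in the simulation. These shares thus do not give the detection rate of this comparison, and a gene not called can still have changed. Counting floors cover counting error only.

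Named genes were the 12 largest rises and 12 largest falls among called protein-coding genes of at least 5 CPM whose groups did not overlap, anchor genes of each list, and up to 3 members in each direction with the smallest p in each list or family. Members of small counts and the genes whose promoters are printed were chosen after their values were seen. Some genes that the rule names are not reported here. The comparison, the 66 gene lists and the tests were chosen with earlier results of these data known. Promoter sequences came from RefSeq, build GRCm38.p6, matched by symbol. Alternatives were DESeq2 1.42.0, limma 3.58.1 on log2 of the authors' FPKM plus a pseudocount of 1 or 0.1, other normalizations and filters, a replicate block, all 4 groups in 1 fit, a minimum fold change, a gene length offset, and each culture left out in turn.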

Additional observations from a re-analysis of the deposited data

Results flagged for a closer look

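In 63 of the 630 groups of 4 cultures read for the genes named, 1 culture lay far from the other 3, its gap to the nearest of them taking a larger part of the group's range than Dixon's limit for 4 values. Chance alone passes that limit in about 1 in 20 groups. In 42 of the 63 the distant culture was control 1. Control 1 was far above the rest of its group for Abcc4 (20.3 CPM), Ajuba (47.4 CPM), Areg (311 CPM), Bmp2 (18.7 CPM), Cdh1 (953 CPM), Cftr (513 CPM), Cps1 (3039 CPM), Ddit3 (86.6 CPM), Flna (114 CPM), Fos (27.7 CPM), Hk2 (90.5 CPM), Lamc1 (45.5 CPM), Ly6a (115 CPM), Muc2 (175 CPM), Muc4 (62.5 CPM), Nfkb2 (30.5 CPM), Nt5e (38.2 CPM), Pard6b (90.7 CPM), Plat (12.9 CPM), Rela (54.7 CPM), Slc2a1 (182 CPM), Smad3 (42.2 CPM), Sqstm1 (322 CPM), Tead1 (60.2 CPM), Trpm5 (13.4 CPM) and Vegfa (365 CPM). Control 1 was far below the rest of its group for Acadm (69.7 CPM), Aqp4 (122 CPM), Atp5c1 (383 CPM), B2m (359 CPM), Casp1 (79.7 CPM), Cdk1 (105 CPM), Cox7c (234 CPM), Cyp2c66 (184 CPM), Decr1 (82.9 CPM), Itln1 (901 CPM), Khk (96.9 CPM), Muc13 (247 CPM), Ndufv2 (173 CPM), Pycard (72.3 CPM), Rab25 (145 CPM) and Sdhb (211 CPM). Control 2 was far above the rest of its group for Isg15 (5.19 CPM). Control 2 was far below the rest of its group for Chgb (224 CPM). Control 3 was far above the rest of its group for Crip2 (1.8 CPM). MYO5BΔIEC 1 was far above the rest of its group for Cldn15 (374 CPM) and Klf4 (56.2 CPM). MYO5BΔIEC 2 was far above the rest of its group for Fabp6 (0.176 CPM) and Tff3 (499 CPM). MYO5BΔIEC 3 was far above the rest of its group for Decr1 (80.8 CPM) and Lamp1 (750.1 CPM). MYO5BΔIEC 3 was far below the rest of its group for Krt10 (1.6 CPM) and Rpl17 (139 CPM). MYO5BΔIEC 4 was far above the rest of its group for Ddit3 (49.9 CPM), Nt5e (18 CPM), Rab25 (148 CPM), Rars2 (49.7 CPM), Rps15a (504 CPM), Sqstm1 (336 CPM) and Zfp948 (13.3 CPM). MYO5BΔIEC 4 was far below the rest of its group for Itga6 (234 CPM), Myo15b (268 CPM) and Trim25 (109.9 CPM). The part of these single cultures in the group differences was not tested beyond the fits with 1 culture left out.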

How the results depend on the processing

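The 4910 calls became 750 when a fold change above 1.5 was tested (485 higher and 265 lower, so that 64.7% rather than 49.4% of calls were rises), and 7756 with DESeq2 without control 1 (4101 higher); this alternative, the length offset without control 1 and the scaling without ribosomal protein genes were chosen after seeing the data. DESeq2 on all 8 libraries gave 5701, all 4 groups in 1 fit 5893, limma 4409 and 4444 for pseudocounts of 1 and 0.1, and no filter 4610. The length offset changed the split to 2148 higher and 2741 lower. With 1 culture left out, calls ran from 2963 to 7474, rises from 1506 to 3767 and falls from 1405 to 3707. Of the 312 genes named, 235 were called, and 198 of these were called in all 8 such fits; 37 were lost in at least 1, and 0 changed sign. Counts of 1 or more members that moved by over 1.5 times with 1 culture left out, and whose range is not given elsewhere, ran as follows: ABC transporters 1 to 3 lower, Rab GTPases 3 to 12 higher and 1 to 9 lower, Arhgap and Arhgef genes 0 to 2 lower, UDP glucuronosyltransferases 2 to 9 lower, aldehyde and alcohol dehydrogenases 2 to 5 higher and 1 to 7 lower, annexins 5 to 8 higher, aquaporins 1 to 3 lower, carboxylesterases 0 to 6 lower, glutathione S-transferases 0 to 15 lower, all keratins 4 to 10 higher and 0 to 1 lower, kinesins 4 to 11 higher and 2 to 8 lower, laminins 3 to 7 higher, Zfp genes 9 to 50 higher, BMP and TGF-beta pathway genes 3 to 9 higher, M cell markers 1 to 2 lower, NRF2 antioxidant genes 1 to 6 higher and 0 to 5 lower, Paneth cell markers 0 to 7 lower, amino acid, urea and polyamine metabolism genes 1 to 5 higher and 2 to 6 lower, antigen presentation genes 0 to 1 lower, antimicrobial genes 0 to 4 lower, apical recycling and trafficking genes 5 to 8 higher and 0 to 5 lower, cell cycle and DNA replication genes 1 to 3 higher, chemokines and NF-kB genes 1 to 7 lower, citric acid cycle genes 1 to 2 higher, complex II genes 1 to 2 lower, complex III nuclear genes 3 to 7 lower, crypt stem cell markers 3 to 8 higher and 1 to 3 lower, dietary lipid absorption and chylomicron genes 2 to 5 higher and 1 to 7 lower, enterocyte transcription factors 0 to 3 lower, enteroendocrine cell markers 1 to 5 higher, fatty acid oxidation and ketogenesis genes 2 to 12 lower, fatty acid synthesis genes 0 to 1 lower, gastric epithelium markers 0 to 1 lower, gluconeogenesis and fructose metabolism genes 0 to 5 lower, glycolysis genes 2 to 11 higher, goblet cell markers 3 to 8 lower, inflammasome and gasdermin genes 0 to 2 higher, iron handling genes 1 to 4 higher and 0 to 1 lower, lysosome and autophagy genes 0 to 5 lower, membrane mucins 1 to 2 higher, microvillus core and intermicrovillar genes 0 to 2 lower, polarity genes 3 to 9 higher, retinoid metabolism genes 1 to 2 higher and 1 to 7 lower, sugar, peptide and amino acid transporters 2 to 4 higher and 0 to 4 lower, tuft cell markers 0 to 1 higher, villus bottom enterocyte genes 0 to 5 lower and xenobiotic metabolism genes 0 to 1 higher and 2 to 19 lower. Counts for transcription factor classes were not recomputed. Counts of 0 that reached 2 or more were tRNA synthetases 3 higher, distal small intestine genes 2 lower, glycolysis genes 3 lower, hypoxia genes 5 higher, proximal small intestine genes 2 lower, unfolded protein and integrated stress response genes 4 higher and villus enterocyte markers 6 lower. DESeq2 called 235 of the 235, the length offset 226 and the minimum fold change 111. Culture numbers did not pair the samples: correlations of the deviations of same-numbered cultures were -0.153, 0.117, -0.0269 and -0.0209. A replicate block gave 3647 calls (1949 higher and 1698 lower) and kept 219 of the 235 named genes.

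Myo5b, not called, was called under several alternatives, with a log2 fold change of -0.54 (adjusted p = 0.0371) with DESeq2, -0.55 (adjusted p = 0.0499) with mitochondrially encoded genes out of the library sizes, -0.56 (adjusted p = 0.0475) with ribosomal protein genes also out, -0.55 (adjusted p = 0.0496) with filterByExpr, -0.57 (adjusted p = 0.047) with no filter, -0.56 (adjusted p = 0.0291) with all 4 groups in 1 fit, -0.82 (adjusted p = 0.0111) with the length offset, -0.60 (adjusted p = 0.00627) with DESeq2 without control 1 and -0.95 (adjusted p = 0.00123) with the length offset without control 1. With 1 culture left out its change ran from -0.72 to -0.44, and it was called without control 1 (adjusted p = 0.0155) and without MYO5BΔIEC 3 (adjusted p = 0.0203). The genes whose sign changed under any alternative were all among those not called. With 1 culture left out, the log2 fold change ran over these ranges: Apoa1 -0.34 to 0.24, Cldn15 -0.011 to 0.18, Crb3 -0.072 to 0.17, Dclk1 -0.47 to 0.28, Ddit3 -1.12 to 0.27, Dgat1 -0.079 to 0.12, Dll1 -0.23 to 0.092, Dll4 -0.23 to 0.034, Id1 -0.30 to 0.057, Muc13 -0.26 to 0.11, Nt5e -1.88 to 1.91, Pck1 -0.47 to 0.37, Scd1 -0.36 to 0.23, Slc2a2 -0.42 to 0.092, Spib -1.18 to 0.026, Trpm5 -0.35 to 0.046 and Vegfa -0.35 to 0.12. With DESeq2, Apoa1 was at 0.0018. With DESeq2 size factors in edgeR, Apoa1 was at 7e-04. With the replicate block, Apoa1 was at 0.051, Nt5e at 0.56 and Pck1 at 0.098. With limma on log2(FPKM + 1), Apoa1 was at 0.19. With limma on log2(FPKM + 0.1), Apoa1 was at 0.19, Nt5e at 0.21 and Pck1 at 0.047. With the gene length offset, Apoa1 was at 0.34, Id1 at 0.22, Lgr5 at -0.074, Mmp7 at 0.015, Myo5a at -0.076 and Myo5c at -0.17. With the length offset without control 1, Apoa1 was at 0.043, Apob at -0.21, Ddit3 at 0.55, Dgat1 at -0.041, Hes1 at 0.030, Id1 at 0.10, Mttp at -0.033, Muc13 at -0.22, Myo5c at -0.24, Nt5e at 1.63, Spib at 0.084 and Vegfa at 0.025. With DESeq2 without control 1, Crb3 was at -0.049, Dclk1 at 0.30, Ddit3 at 0.29, Dgat1 at -0.057, Muc13 at -0.23, Nt5e at 1.94, Spib at 0.049, Trpm5 at 0.069 and Vegfa at 0.14. With upper-quartile scaling, Muc13 was at -0.0063. With mitochondrially encoded genes out of the library sizes, Muc13 was at -9e-04. With no filter, Muc13 was at -0.016. With all 4 groups in 1 fit, Muc13 was at -0.0052. With ribosomal protein genes also out of them, Muc13 was at -0.0082. The cause of these changes was not tested.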

Other observations

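Gene families outside the lists described above gave further changes. Of 38 ABC transporter genes, pumps that export drugs, lipids and conjugates, 17 rose and 1 fell (median log2 fold change 0.60), and with 1 culture left out 9 (without control 3) to 21 (without control 1) rose. Abcc4, which exports cyclic nucleotides, had 20.3, 12.7, 13 and 11.9 CPM in controls and 35.4, 46.1, 45.7 and 49.9 CPM in MYO5BΔIEC cultures (log2 fold change 1.61), and Abcc5, of the same subfamily, went from 21.7 to 64.9 CPM (1.58). The only member lower was Abce1, which recycles ribosomes and transports nothing, at 353, 319, 336 and 289 CPM in controls and 166, 168, 196 and 238 CPM in MYO5BΔIEC cultures (log2 fold change -0.76). Of 50 TRIM genes, mostly ubiquitin ligases, 14 rose (10 (without control 3) to 25 (without control 1) with 1 culture left out) and none fell, among them Trim25, which modifies RIG-I, from 68.3 to 145 CPM (1.08), and Trim11 (1.17). The S100 genes gave 3 higher and none lower of 10, with S100a14 at 1.06 and S100a11 at 0.90.

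Of 6 aquaporin genes 1 fell and 1 rose. Aqp4, a basolateral water channel, had 122, 181, 186 and 189 CPM in controls and 91.2, 84.2, 84.2 and 71.1 CPM in MYO5BΔIEC cultures (log2 fold change -1.03 ± 0.17 (SE), adjusted p = 0.00242), with no overlap between the groups, while Aqp7, a glycerol channel, went from 0.723 to 3.53 CPM (2.27). Aldehyde and alcohol dehydrogenases split, with 5 of 22 higher and 4 lower. Aldh4a1, of proline breakdown, went from 1.41 to 9.95 CPM (2.81) and Adh5, which oxidises formaldehyde adducts, from 221 to 137 CPM (-0.69). Carboxylesterases gave 3 higher and 2 lower of 14, Ces2b from 12.3 to 41.1 CPM (1.74) against Ces1e from 19.3 to 8.27 CPM (-1.22, not called without control 4, adjusted p up to 0.0515); the members of that family share sequence, and the counting can split their reads.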
